A study of Homo sapiens with 24 samples.

Results

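The genes described here are 36 genes of the endoplasmic reticulum (ER) stress and ATF4 response, followed in 2 human hepatocellular carcinoma (HCC) cell lines exposed to TGFβ1 and to galunisertib, a kinase inhibitor of the type I TGFβ receptor. They were chosen by name, and every non-control probe of the microarray whose accession belongs to one of them was taken, which gave 42 probes for 36 of 31204 named genes on the array. The established lines PLC/PRF/5 and SNU-449 were starved of serum overnight and then kept for 16 h in 4 conditions, namely untreated control cells and cells treated with TGFβ1 at 1 ng/mL, with galunisertib (LY2157299) at 10 µM, or with both. Each of the 8 groups held 3 independent cultures, each hybridised to 1 one-colour Agilent array, so that the number of arrays limits the precision. Levels are log2 values of the processed intensity over the 75th percentile of its array, and values of replicates 1, 2 and 3 are given in that order throughout. A gene was called where the adjusted p of limma was below 0.05.

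The ER is where secreted proteins are folded, and hepatocytes, which export large amounts of plasma proteins, depend on it heavily. When unfolded proteins build up, the sensors IRE1 (gene *ERN1*), PERK and ATF6 switch on an unfolded protein response, in which ATF6 and spliced XBP1 induce chaperones and the degradation machinery. PERK phosphorylates the initiation factor eIF2α, as does GCN2 when amino acids run short, and the translation of ATF4 rises. ATF4 in turn induces enzymes of amino acid synthesis, tRNA synthetases, and stress effectors such as CHOP (gene *DDIT3*), TRIB3 and CHAC1. The array measures messenger RNA only, so that phosphorylation, ATF6 cleavage and the splicing of *XBP1* were not seen, and each array held RNA of a whole culture, in which fewer expressing cells and less RNA per cell cannot be told apart.

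The share of probes flagged by the scanner software as well above background was 41.6% to 49.6% over the 24 arrays, whose 75th percentiles ranged from 145 to 262 intensity units. The replicate number is also the slide, a group always sat in 1 position of a slide (3 slides in all), and the arrays without TGFβ formed the first row and those with TGFβ the second, so that the position on the slide and the treatment cannot be told apart. The direct TGFβ targets *SMAD7* and *PMEPA1* rose with TGFβ in SNU-449, by 0.65 and 1.39 on the log2 scale, and *SMAD7*, *SKIL* and *PMEPA1* fell with galunisertib, by 1.90, 2.62 and 3.5. For PLC/PRF/5, *SMAD7*, *SKIL* and *PMEPA1* rose with TGFβ by 0.80, 1.63 and 2.59, and *SMAD7* and *SKIL* fell with galunisertib by 0.44 and 0.63. With galunisertib present, TGFβ still raised these 3 targets in SNU-449, by 1.38 to 2.77. They were not called in that comparison in PLC/PRF/5 (-0.31 for *SMAD7*, 0.20 for *SKIL* and 0.49 for *PMEPA1*). All 7 hepatocyte markers were well above background on at least 1 array of PLC/PRF/5 control cells, but *ALB*, *APOB*, *TF* and *HNF4A* were not on any SNU-449 control array, and the summed level of the list was 467 to 737 times the 75th percentile in PLC/PRF/5 control cells and 0.604 to 0.677 times in SNU-449 control cells. The mesenchymal list summed to 165 to 193 and 446 to 555 times, respectively. Within that list, 3 of the 4 markers were called higher in SNU-449 control cells and 1, *FN1*, was called lower. The part of these cell-type programs in the differences between the lines was not tested.

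Of the 36 genes, 34 had a probe well above background on all 24 arrays. *ERN1* was well above background on 11 arrays, all of PLC/PRF/5, and was held at the floor of -4.13 on every SNU-449 array, while *STC2* was well above background on 22 arrays. In SNU-449, 35 genes were therefore tested. *STC2*, *WARS1*, *CRELD2*, *HERPUD1*, *SHMT2* and *PHGDH* were each read by 1 spot near an edge of the array, and *STC2* was at -3.13 in SNU-449 control replicate 3 against 0.75 and 0.59 in the other two; the part of the spot's position was not tested. *CEBPB*, *DDIT4* and *XBP1* were each read by 10 spots per array.

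Genes of the 2 arms of the response carry different promoter elements, and the 250 bases before the start of each gene were searched for the elements named after them. The ER stress response element (CCAAT and CCACG 9 bases apart, the site of ATF6 and XBP1 with NF-Y) was found on either strand in 7 of the 33 members for which RefSeq (GRCh38.p14) gave a promoter, or 21.2%, against 0.0916% of 27305 genes. They were *HSPA5*, *HSP90B1*, *CALR*, *CANX*, *PDIA6*, *CRELD2* and *XBP1*. The core of the C/EBP-ATF response element (TGATGNAA), at which ATF4 binds with C/EBP partners, was found in *ASNS*, *CHAC1*, *CEBPG*, *AARS1* and *HERPUD1*, that is in 15.2% of members against 3.89% of genes. The unfolded protein response element (TGACGTG) was found in *HYOU1* alone among them, 3.03% against 2.05%. No promoter of a member held more than 1 of these kinds of match. A match is a description of the letters and no measure of binding. The promoters of 2 ER stress genes and of 2 ATF4 targets whose levels are followed below are shown 5′ to 3′ on the strand of the gene, ending at the base before the start, with the match in capitals. *HSPA5* (chr9:125241344-125241593, minus strand) and *XBP1* (chr22:28800570-28800819, minus strand) have the ER stress response element 66 and 52 bases before the start, and *CHAC1* (chr15:40953221-40953470, plus strand) and *ASNS* (chr7:97872409-97872658, minus strand) have the ATF4 core 209 and 68 bases before it, in *CHAC1* on the opposite strand.
HSPA5: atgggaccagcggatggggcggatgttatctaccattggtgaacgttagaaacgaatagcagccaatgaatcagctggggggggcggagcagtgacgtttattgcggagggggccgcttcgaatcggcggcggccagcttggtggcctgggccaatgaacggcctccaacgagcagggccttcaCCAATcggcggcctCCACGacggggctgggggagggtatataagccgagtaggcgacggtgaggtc
XBP1: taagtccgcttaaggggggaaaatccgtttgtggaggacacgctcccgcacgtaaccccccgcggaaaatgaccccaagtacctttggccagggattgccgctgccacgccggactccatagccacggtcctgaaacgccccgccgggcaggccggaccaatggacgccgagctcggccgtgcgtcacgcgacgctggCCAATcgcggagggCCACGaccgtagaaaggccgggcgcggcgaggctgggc
CHAC1: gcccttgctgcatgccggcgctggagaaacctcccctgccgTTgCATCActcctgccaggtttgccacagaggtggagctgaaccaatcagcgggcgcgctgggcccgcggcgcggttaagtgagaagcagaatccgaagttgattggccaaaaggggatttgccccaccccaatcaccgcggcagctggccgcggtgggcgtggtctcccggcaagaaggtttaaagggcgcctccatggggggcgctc
ASNS: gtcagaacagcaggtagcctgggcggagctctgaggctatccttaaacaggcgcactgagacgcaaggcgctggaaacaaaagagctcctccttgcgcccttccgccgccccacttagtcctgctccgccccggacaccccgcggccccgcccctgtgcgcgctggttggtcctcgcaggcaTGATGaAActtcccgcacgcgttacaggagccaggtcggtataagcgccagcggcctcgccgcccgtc

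The first comparison asked how the untreated lines differ. SNU-449 control cells had lower levels of most of these genes than PLC/PRF/5 control cells, in each role group, with *CHAC1* and *DDIT4* furthest apart, whereas the chaperone *HSPA5* and the pseudokinase *TRIB3* were higher in SNU-449. Of the 36 genes, 25 were lower and 5 higher in SNU-449, or 83.3% called, while 68.5% of all 17900 genes tested were called in this comparison. The median log2 difference was -1.16 over the 36 genes and -0.06 over all genes tested.

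Among the stress effectors, *CHAC1*, which encodes an enzyme that breaks down glutathione, stood at 5.54, 5.57 and 5.57 in PLC/PRF/5 control cells and at 0.14, -0.16 and 0.10 in SNU-449 control cells. The groups lay 5.53 log2 units apart (standard error 0.13, adjusted p = 1.83e-18), a 46.3-fold difference. *DDIT4*, which encodes the mTORC1 inhibitor REDD1, was at 4.84, 4.96 and 5.17 in PLC/PRF/5 and at -0.42, -0.14 and -0.41 in SNU-449, 39.9-fold lower (log2 difference -5.32, standard error 0.22, adjusted p = 2.27e-14). *SESN2*, a leucine sensor that also restrains mTORC1, differed by -2.51, and *STC2*, a secreted glycoprotein hormone, by -2.20 with a standard error of 0.68, the widest among the called members. Without SNU-449 control replicate 3 that difference was -0.93 (adjusted p = 0.0389), and the call was lost with the methods' t-test (adjusted p = 0.206). The other two effectors ran the opposite way. *TRIB3*, which inhibits AKT and binds ATF4, was at 4.85, 4.93 and 5.12 in PLC/PRF/5 and at 5.86, 5.95 and 6.05 in SNU-449, which is 0.98 higher (standard error 0.09, adjusted p = 1.43e-08). *PPP1R15A*, the GADD34 subunit that directs a phosphatase back to eIF2α, was at -0.13, -0.0060 and 0.16 in PLC/PRF/5 and at 1.08, 0.74 and 0.92 in SNU-449, which is 0.90 higher (standard error 0.14, adjusted p = 9.32e-06). Thus the feedback genes *TRIB3* and *PPP1R15A* were higher in the line in which *CHAC1*, *DDIT4* and *SESN2* were lower, with no overlap between the groups for any of them.

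Among the 7 sensors and transcription factors, 6 were lower in SNU-449 and *ATF6* was higher by 0.46. *ATF4* was at 8.72, 8.70 and 8.68 in PLC/PRF/5 and at 7.25, 6.92 and 7.04 in SNU-449, 3.1-fold lower (log2 difference -1.63, standard error 0.09, adjusted p = 3.42e-12). *DDIT3*, the pro-apoptotic ATF4 target CHOP, differed by -2.48, and total *XBP1* by -1.46 with a standard error of 0.07. The dimerisation partners *CEBPG* and *CEBPB* differed by -1.02 and -0.78. *ERN1* was at -2.68, -3.01 and -3.11 in PLC/PRF/5 and not well above background in SNU-449, so that PLC/PRF/5 exceeded SNU-449 at least 2.18-fold.

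The 13 chaperones and folding enzymes were split, with 8 lower and 2 higher in SNU-449. *HSPA5*, which encodes the main ER chaperone BiP, was at 1.22, 1.41 and 1.45 in PLC/PRF/5 and at 2.42, 2.51 and 2.54 in SNU-449, 2.19-fold higher (log2 difference 1.13, standard error 0.08, adjusted p = 3.29e-10). The secreted protective factor *MANF* was also higher in SNU-449, with 6.33, 6.4 and 6.51 against 5.65, 5.74 and 5.87 (log2 difference 0.66, standard error 0.11). At the other end, the BiP co-chaperone *DNAJB9* was at 4.63, 4.95 and 5.06 in PLC/PRF/5 and at 1.76, 2.02 and 1.96 in SNU-449, 7.83-fold lower (log2 difference -2.97, standard error 0.12, adjusted p = 1.3e-14). The lectin chaperone *CANX*, the BiP partner *SDF2L1*, the nucleotide exchange factor *HYOU1*, the disulfide isomerase *PDIA6* and the co-chaperone *DNAJC3* differed by -2.07, -1.84, -1.53, -1.49 and -1.14, and the chaperones *CALR* and *HSP90B1* by -0.55 and -0.47. The isomerases *PDIA3* and *PDIA4* and the folding factor *CRELD2* were not called, but the probes of *PDIA3* disagreed, since the second one gave -1.53.

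In ER-associated degradation, *HERPUD1*, a scaffold of the ubiquitin ligase complex, was at 7.32, 7.41 and 7.62 in PLC/PRF/5 and at 4.06, 4.31 and 4.42 in SNU-449, 9.11-fold lower (log2 difference -3.19, standard error 0.21, adjusted p = 5.06e-11). *EDEM1*, which passes misfolded glycoproteins to degradation, differed by -1.19. For the complex member *SEL1L* the strongest probe gave 0.27, which was not called, and the other two gave -0.95 and -0.45. Among the 7 genes of amino acid synthesis and tRNA charging, none was called higher in SNU-449 and 5 were lower, namely asparagine synthetase *ASNS* by 1.92, alanyl-tRNA synthetase *AARS1* by 1.45, and the serine pathway enzymes *PSPH*, *PSAT1* and *PHGDH* by 1.37, 1.02 and 0.41 on the log2 scale. Scaling each array to its median left 26 of the 30 calls, without *CALR*, *HSP90B1*, *CEBPB* and *PHGDH*, and *PHGDH* gave -0.29 with an adjusted p of 0.0567 without SNU-449 control replicate 3.

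**Figure D1:**
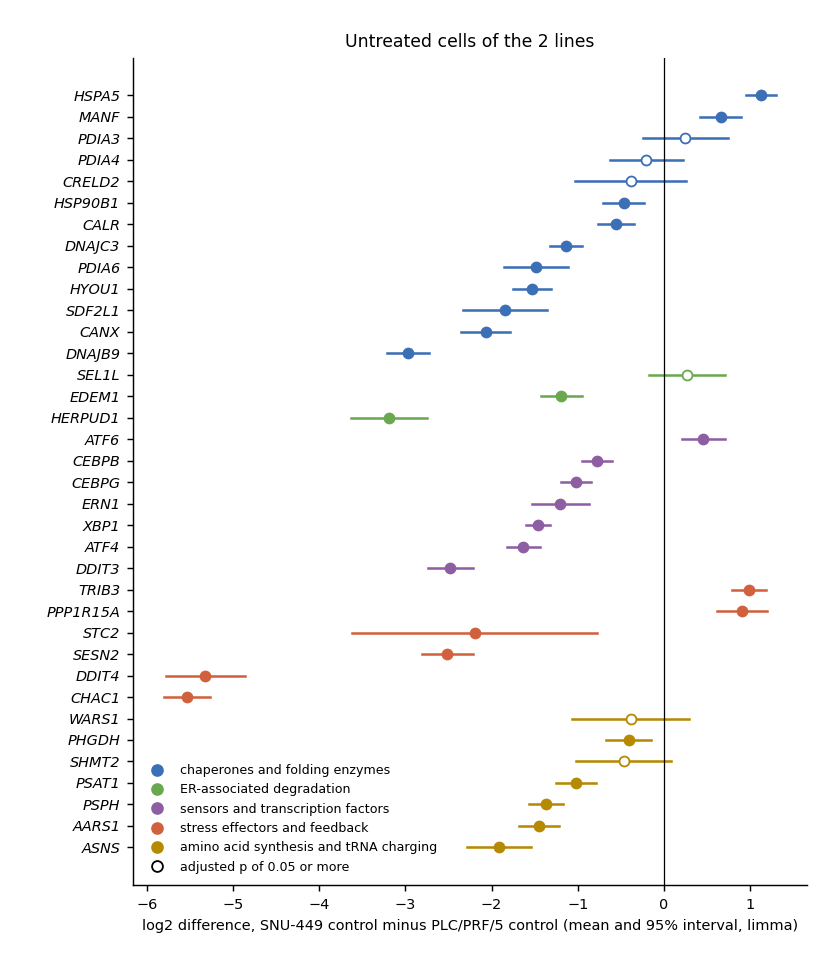
Difference between untreated SNU-449 and PLC/PRF/5 cells for the 36 genes, by role group. Points are log2 differences with 95% intervals from limma, filled where called (25 lower and 5 higher in SNU-449). *CHAC1* and *DDIT4* lie furthest to the left, at -5.53 and -5.32, and *HSPA5* furthest to the right, at 1.13.

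The next comparisons asked what TGFβ and galunisertib do in SNU-449. TGFβ raised *HSPA5*, *XBP1* and *CHAC1* and lowered *CEBPB*, and galunisertib given with TGFβ moved all 4 the opposite way. Galunisertib alone raised *CEBPB* and *DDIT4*. The changes ran from 1.24-fold to 2.63-fold. TGFβ against control called 3 genes higher and 1 lower of 35, beside 10.5% of the 16100 genes tested, and galunisertib against control called 2 higher, beside 7.43%. Galunisertib added to TGFβ called 2 higher and 5 lower, beside 17.1%. TGFβ added to galunisertib called *CEBPB* alone, beside 1.9%. The share of members called was thus near that of all genes in the first and the third of these comparisons, and the members are described for what they are and not as a set apart. The median log2 difference over the members was 0.16 for TGFβ and -0.22 for galunisertib added to TGFβ, beside 0.02 and 0.01 over all genes. These last comparisons share the 3 TGFβ arrays, so that opposite signs between them are partly built in. With arrays scaled to their median, galunisertib kept the call of *DDIT4*, galunisertib added to TGFβ kept those of *CHAC1* and *HYOU1*, and the other calls in SNU-449 were lost.

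In PLC/PRF/5, TGFβ lowered 4 of the 6 stress effectors, and galunisertib added to TGFβ raised the same 4; both comparisons use the 3 TGFβ arrays. TGFβ against control called 1 gene higher (*ATF6*) and 6 lower of 36 (*STC2*, *ERN1*, *TRIB3*, *DDIT4*, *CHAC1* and *PHGDH*), beside 13.5% of the 16682 genes tested. Galunisertib against control called 2 higher (*CHAC1* and *TRIB3*), beside 5.41%. Galunisertib added to TGFβ called 16 higher and 1 lower, beside 39.1% of all genes, of which more rose than fell. TGFβ added to galunisertib called *SEL1L* higher and *STC2*, *AARS1* and *PHGDH* lower, beside 8.55%. For galunisertib added to TGFβ the median log2 difference over the members was 0.27, beside 0.06 over all genes. That split depended on the scaling, since it was 11 higher and 0 lower with arrays scaled to their median, 8 higher and 3 lower with the 75th percentile of probes that all arrays detected above background, and 9 higher and 3 lower after quantile normalization. With the array median, *STC2* alone kept its call in both comparisons of TGFβ with its absence, and both calls with galunisertib alone were lost. In every called difference between treatments the groups did not overlap, which by itself fixes the same sign on 3 of 3 slides. Such separation is largely built into a call with 3 arrays per group and adds no support to it.

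**Figure D2:**
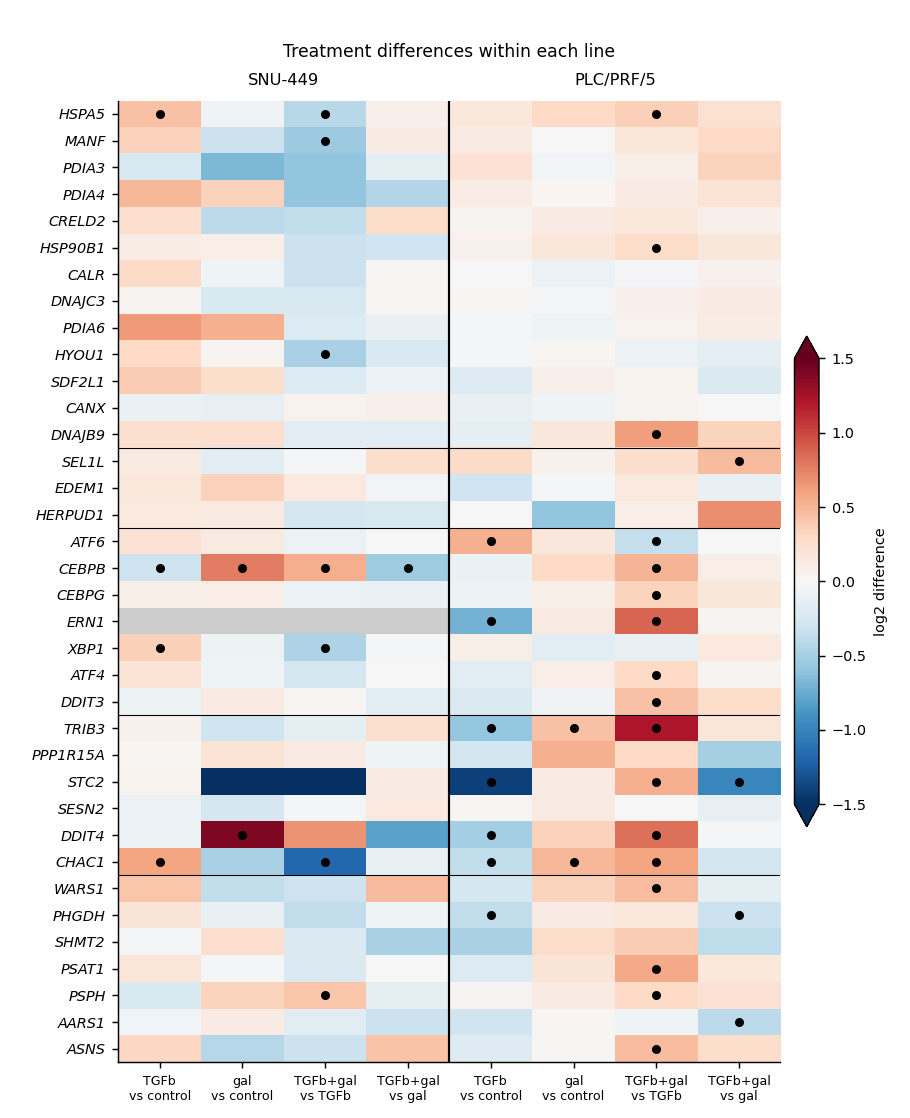
Log2 differences of the 36 genes in 4 comparisons within each line, coloured from -1.5 (blue) to 1.5 (red; *STC2* of SNU-449 lies beyond the blue end, at -2.04 and -1.97), with dots on those called and grey where *ERN1* was not tested. The column of galunisertib added to TGFβ in PLC/PRF/5 holds the most dots (16 higher, 1 lower), and *CHAC1* is of opposite colour in the 2 lines for TGFβ, for galunisertib and for both against TGFβ.

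Among the sensors and transcription factors, total *XBP1*, whose spliced form is the transcription factor made after IRE1 acts, was at 4.65, 4.77 and 4.80 in SNU-449 control cells and at 5.08, 5.10 and 5.10 with TGFβ. It was at 4.73, 4.65 and 4.60 with galunisertib and at 4.62, 4.63 and 4.63 with both. Only the TGFβ arrays stood apart from the others, without overlap. TGFβ raised *XBP1* 1.28-fold (log2 difference 0.36, standard error 0.07, adjusted p = 0.0107), and galunisertib added to TGFβ lowered it by 0.47 on the log2 scale (standard error 0.07, adjusted p = 0.00146). The *XBP1* level of PLC/PRF/5 ranged from 5.96 to 6.33 and was not called in any of the 4 comparisons.

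*CEBPB*, which encodes a liver-enriched transcription factor that pairs with ATF4, moved in the opposite direction to *XBP1* in SNU-449. It was at 4.0, 4.01 and 4.17 in control cells, at 3.73, 3.78 and 3.74 with TGFβ, at 4.85, 4.75 and 4.90 with galunisertib and at 4.31, 4.19 and 4.41 with both. The 4 groups were fully separated, lowest with TGFβ and highest with galunisertib alone. Galunisertib raised it 1.71-fold against control (log2 difference 0.77, standard error 0.09, adjusted p = 8.6e-04) and by 0.55 against TGFβ (adjusted p = 0.00157), and TGFβ lowered it by 0.53 in the presence of galunisertib (adjusted p = 0.0152, and 0.0551 with a log2 difference of -0.47 without replicate 2 of both agents). The fall with TGFβ alone, by 0.31 with an adjusted p of 0.0494, was lost without any 1 of the 6 arrays (adjusted p from 0.0738 to 0.145) and with the replicate number as a block (adjusted p = 0.0513). The levels of *CEBPB* in PLC/PRF/5 were 4.75, 4.81 and 4.93 in control cells, 4.70, 4.78 and 4.71 with TGFβ, 5.05, 5.14 and 5.22 with galunisertib and 5.41, 5.15 and 5.17 with both. There it rose 1.43-fold with galunisertib added to TGFβ (log2 difference 0.51, standard error 0.09, adjusted p = 0.00136), and galunisertib alone gave 0.30 with an adjusted p of 0.0771.

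*ATF4* itself changed little. Its levels in PLC/PRF/5 were 8.72, 8.70 and 8.68 in control cells, 8.61, 8.56 and 8.47 with TGFβ, 8.75, 8.82 and 8.83 with galunisertib, and 8.96, 8.76 and 8.81 with both. The TGFβ arrays were the lowest, and galunisertib added to TGFβ raised *ATF4* 1.23-fold (log2 difference 0.30, standard error 0.07, adjusted p = 0.00917). In SNU-449, *ATF4* was at 7.25, 6.92 and 7.04 in control cells and at 7.34, 7.24 and 7.25 with TGFβ, a difference of 0.21 with a 95% interval from -0.04 to 0.46, and no treatment was called. Its partner *CEBPG* and its target *DDIT3* also rose in PLC/PRF/5 with galunisertib added to TGFβ. *CEBPG* was at 4.26, 4.38 and 4.22 with TGFβ and at 4.72, 4.56 and 4.60 with both (log2 difference 0.34, standard error 0.09, adjusted p = 0.00998). *DDIT3* was at 1.74, 1.74 and 1.68 with TGFβ and at 2.12, 2.13 and 2.21 with both (log2 difference 0.44, standard error 0.12, adjusted p = 0.0144). The calls of *ATF4* and *CEBPG* were lost under the 3 other scalings of the arrays, and that of *DDIT3* under all of them but the array median.

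The 2 other sensors, *ATF6* and *ERN1*, ran in opposite directions in PLC/PRF/5. *ATF6* was at 2.03, 2.22 and 2.45 in control cells, 2.74, 2.74 and 2.81 with TGFβ, 2.34, 2.32 and 2.55 with galunisertib, and 2.45, 2.40 and 2.36 with both. The TGFβ arrays were above all others, with a rise of 0.53 against control (standard error 0.11, adjusted p = 0.0082) and a fall of 0.36 with galunisertib added (adjusted p = 0.0205), the latter lost without replicate 1 or 3 of TGFβ or replicate 2 or 3 of both agents (adjusted p from 0.0503 to 0.0681). *ERN1* was at -2.68, -3.01 and -3.11 in control cells, -3.28, -3.51 and at the floor with TGFβ, -2.68, -2.70 and -3.03 with galunisertib, and -2.73, -2.98 and -2.59 with both. Galunisertib added to TGFβ raised it by 0.87 (standard error 0.21, adjusted p = 0.00769), a value that rests on the floor of 1 array. The fall with TGFβ alone, by 0.71 with an adjusted p of 0.0488, was kept in 3 of 10 alternative settings and, of the 6 arrays, only without TGFβ replicate 1 (adjusted p from 0.0602 to 0.15 without any other).

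Among the chaperones, *HSPA5* was the one called in both lines. In SNU-449 it was at 2.42, 2.51 and 2.54 in control cells, 2.88, 2.90 and 2.99 with TGFβ, 2.46, 2.35 and 2.51 with galunisertib, and 2.61, 2.54 and 2.38 with both. As for *XBP1*, the TGFβ arrays were above all others. The rise with TGFβ was 1.35-fold (log2 difference 0.43, standard error 0.09, adjusted p = 0.00982) and the fall with galunisertib added to it was 0.41 on the log2 scale (standard error 0.09, adjusted p = 0.00847). *HSPA5* in PLC/PRF/5 was at 1.22, 1.41 and 1.45 in control cells, 1.52, 1.55 and 1.51 with TGFβ, 1.69, 1.61 and 1.68 with galunisertib, and 2.06, 1.80 and 1.80 with both. Here the level was lowest in control cells and highest with both agents, and galunisertib added to TGFβ raised it by 0.36 (standard error 0.09, adjusted p = 0.00959), in the direction opposite to that in SNU-449. That rise was not called with arrays scaled to their median or to probes detected on all arrays.

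In SNU-449, *MANF* and *HYOU1* followed *HSPA5* in falling with galunisertib added to TGFβ. *MANF* was at 6.69, 6.79 and 6.80 with TGFβ and at 6.31, 6.15 and 6.18 with both, 1.46-fold lower (log2 difference -0.55, standard error 0.13, adjusted p = 0.0141). *HYOU1* was at -0.08, -0.04 and -0.17 with TGFβ and at -0.88, -0.46 and -0.42 with both (log2 difference -0.49, standard error 0.14, adjusted p = 0.0343). Of the 13 chaperones and folding enzymes 12 had a lower mean with both than with TGFβ alone (median log2 difference -0.32, beside 0.01 over all genes), but only these 3 were called. The share of all genes with a lower mean was not counted. The exception, *CANX*, gave 0.06 with the probe used and -0.22 with its second probe. The call of *MANF* was lost without TGFβ replicate 2 or 3 (adjusted p of 0.0539 and 0.054) and that of *HYOU1* without any TGFβ replicate or replicate 1 of both agents (adjusted p from 0.0707 to 0.115). *CALR* was called only without replicate 1 of both agents (-0.44, adjusted p = 0.0177, against -0.32 with it). The isomerase *PDIA6* had the widest difference of the group with TGFβ, 0.63 with an adjusted p of 0.0984, and was called (0.88, adjusted p = 0.0182) only when SNU-449 control replicate 2 was left out.

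The chaperone gene that changed most in PLC/PRF/5 was *DNAJB9*. It was at 4.63, 4.95 and 5.06 in control cells, 4.62, 4.79 and 4.84 with TGFβ, 5.03, 4.91 and 5.20 with galunisertib, and 5.60, 5.29 and 5.26 with both. The arrays with both agents were above all others, and galunisertib added to TGFβ raised it 1.55-fold (log2 difference 0.63, standard error 0.13, adjusted p = 0.00392). *HSP90B1*, which encodes the ER chaperone GRP94, was at 7.79, 7.69 and 7.72 with TGFβ and at 8.12, 7.89 and 7.99 with both (log2 difference 0.27, standard error 0.09, adjusted p = 0.0313). Its second probe gave -0.20, and the call was lost without any 1 of these arrays but replicate 2 of both agents (adjusted p from 0.0518 to 0.104). By the probe with the highest mean, the other 10 chaperones and folding enzymes were not called with treatment in this line. *SDF2L1* gave 0.34 with an adjusted p of 0.0118 for galunisertib added to TGFβ without replicate 1 of both agents, against 0.05 with it. In that comparison the second probes of *CANX* and *PDIA3* gave 0.29 and 0.30 (standard errors 0.06 and 0.08), against 0.04 and 0.08 for the probes used. For TGFβ added to galunisertib, the second *PDIA3* probe gave 0.49 (standard error 0.08), against 0.34. Calls were made on 1 probe per gene, so these second probes were left uncalled. Of the genes of ER-associated degradation, *SEL1L* was called once. It was at 1.99, 1.86 and 2.07 with galunisertib and 2.49, 2.39 and 2.47 with both (log2 difference 0.47, standard error 0.13, adjusted p = 0.0474), a call lost without any 1 of the 6 arrays (adjusted p from 0.0535 to 0.13). The other probes of *SEL1L* disagreed there, with 0.52 and 0.01 (standard errors 0.14 and 0.05).

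*CHAC1* had opposite responses in the 2 lines. In SNU-449 it was at 0.14, -0.16 and 0.10 in control cells, 0.94, 0.50 and 0.40 with TGFβ, -0.49, -0.60 and -0.27 with galunisertib, and -0.61, -0.47 and -0.62 with both. Its PLC/PRF/5 levels were 5.54, 5.57 and 5.57 in control cells, 5.09, 5.31 and 5.19 with TGFβ, 6.14, 6.08 and 5.95 with galunisertib, and 5.96, 5.76 and 5.63 with both. The TGFβ arrays were thus the highest in SNU-449 and the lowest in PLC/PRF/5, and in both lines no control array overlapped with the TGFβ or the galunisertib arrays. Even so, galunisertib against control in SNU-449 gave -0.48 and was not called. TGFβ raised *CHAC1* 1.5-fold in SNU-449 (log2 difference 0.59, standard error 0.15, adjusted p = 0.0353), and galunisertib added to TGFβ lowered it 2.26-fold (log2 difference -1.18, standard error 0.15, adjusted p = 4.79e-04), which held under all 11 alternative settings and without each array. For PLC/PRF/5, TGFβ lowered it by 0.37 (adjusted p = 0.0304), galunisertib raised it by 0.50 (adjusted p = 0.0175), and galunisertib added to TGFβ raised it by 0.59 (standard error 0.10, adjusted p = 8.98e-04). The rise with TGFβ in SNU-449 held only without TGFβ replicate 3 (adjusted p from 0.0607 to 0.113 without any other array), the fall in PLC/PRF/5 only without TGFβ replicate 2 (0.0647 to 0.121), and the rise with galunisertib was lost without control replicate 1 or 2 or galunisertib replicate 1 (0.0528 to 0.0676). The second *CHAC1* probe, well above background on 13 arrays, gave 0.08 for galunisertib added to TGFβ in PLC/PRF/5, so that it did not show that rise. Against control in PLC/PRF/5 it gave -0.39 with TGFβ and 0.29 with galunisertib (standard error 0.20 for each), with the signs of the probe used. In SNU-449 it was well above background on 1 array and measured no difference.

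*TRIB3* changed with treatment in PLC/PRF/5. It was at 4.85, 4.93 and 5.12 in control cells, 4.25, 4.52 and 4.39 with TGFβ, 5.40, 5.31 and 5.52 with galunisertib, and 5.70, 5.45 and 5.65 with both. The TGFβ arrays were below and all galunisertib arrays above the control arrays. TGFβ lowered it 1.5-fold (log2 difference -0.58, standard error 0.11, adjusted p = 0.00535) and galunisertib added to TGFβ raised it 2.32-fold (log2 difference 1.21, standard error 0.11, adjusted p = 2.34e-05). Galunisertib alone raised it by 0.44 (adjusted p = 0.04), a call lost without control replicate 1 or 2 or galunisertib replicate 1 or 3 (adjusted p from 0.101 to 0.125) and with the replicate number as a block (adjusted p = 0.0534). *TRIB3* was also the one gene called for the interaction of TGFβ and galunisertib in PLC/PRF/5, beside 8.76% of all genes, with the effect of TGFβ higher by 0.77 when galunisertib was present (standard error 0.15, adjusted p = 0.0144), a call lost with arrays scaled to their median. In SNU-449, where it was at 5.86, 5.95 and 6.05 in control cells and at 5.79, 5.63 and 5.55 with galunisertib, it was not called (log2 difference -0.30, adjusted p = 0.0622, and -0.36 with 0.0451 without galunisertib replicate 1). For that interaction in SNU-449 limma called 0 of 35 genes, beside 2.62% of all genes called, and without the filter on dim probes it called *XBP1*. With that filter, the smallest adjusted p of limma among the members was 0.0836, for *XBP1*.

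*DDIT4* rose with galunisertib in SNU-449, from -0.42, -0.14 and -0.41 in control cells to 1.45, 0.44 and 1.32, and was at -0.41, -0.33 and -0.45 with TGFβ and -0.21, 0.41 and 0.61 with both. Galunisertib replicate 2 was the lowest of its group and still above each control array. The change was 2.63-fold (log2 difference 1.4, standard error 0.27, adjusted p = 0.0134). *DDIT4* in PLC/PRF/5 was at 4.84, 4.96 and 5.17 in control cells, 4.40, 4.56 and 4.48 with TGFβ, 5.23, 5.25 and 5.53 with galunisertib, and 5.06, 5.45 and 5.40 with both. It was lowest with TGFβ, by 0.51 against control (standard error 0.13, adjusted p = 0.0252), a call lost without control replicate 2 or 3 or TGFβ replicate 1 or 3 (adjusted p from 0.062 to 0.0954), and galunisertib added to TGFβ raised it 1.77-fold (log2 difference 0.83, standard error 0.13, adjusted p = 7.13e-04).

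*STC2* fell most with TGFβ in PLC/PRF/5. It was at 1.71, 1.48 and 1.60 in control cells, 0.41, 0.23 and -0.0498 with TGFβ, 1.80, 1.48 and 1.89 with galunisertib, and 0.74, 0.78 and 0.70 with both. The arrays with both agents lay between the TGFβ arrays and the control arrays, without overlap. TGFβ lowered it 2.64-fold (log2 difference -1.4, standard error 0.13, adjusted p = 1.01e-04), and with galunisertib present it still lowered it by 0.98 (adjusted p = 0.00699). Galunisertib added to TGFβ raised it by 0.54 (adjusted p = 0.00818). In SNU-449, *STC2* was at 0.75, 0.59 and -3.13 in control cells, -0.0029, -0.68 and -0.95 with TGFβ, -2.48, -1.95 and -3.5 with galunisertib, and -1.91, -3.27 and -2.35 with both. All galunisertib arrays were below the TGFβ arrays, yet no difference between treatments was called. The comparisons that use no control arrays were not refitted without a control array. Control replicate 3 lay with the galunisertib arrays. Without that array, galunisertib against control gave -3.31 (standard error 0.50, adjusted p = 0.00926), against -2.04 with it (adjusted p = 0.193). The remaining effectors, *PPP1R15A* and *SESN2*, were not called with any treatment, although *PPP1R15A* gave 0.48 with an adjusted p of 0.0115 for galunisertib added to TGFβ in PLC/PRF/5 without replicate 1 of both agents, against 0.30 with it.

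**Figure D3:**
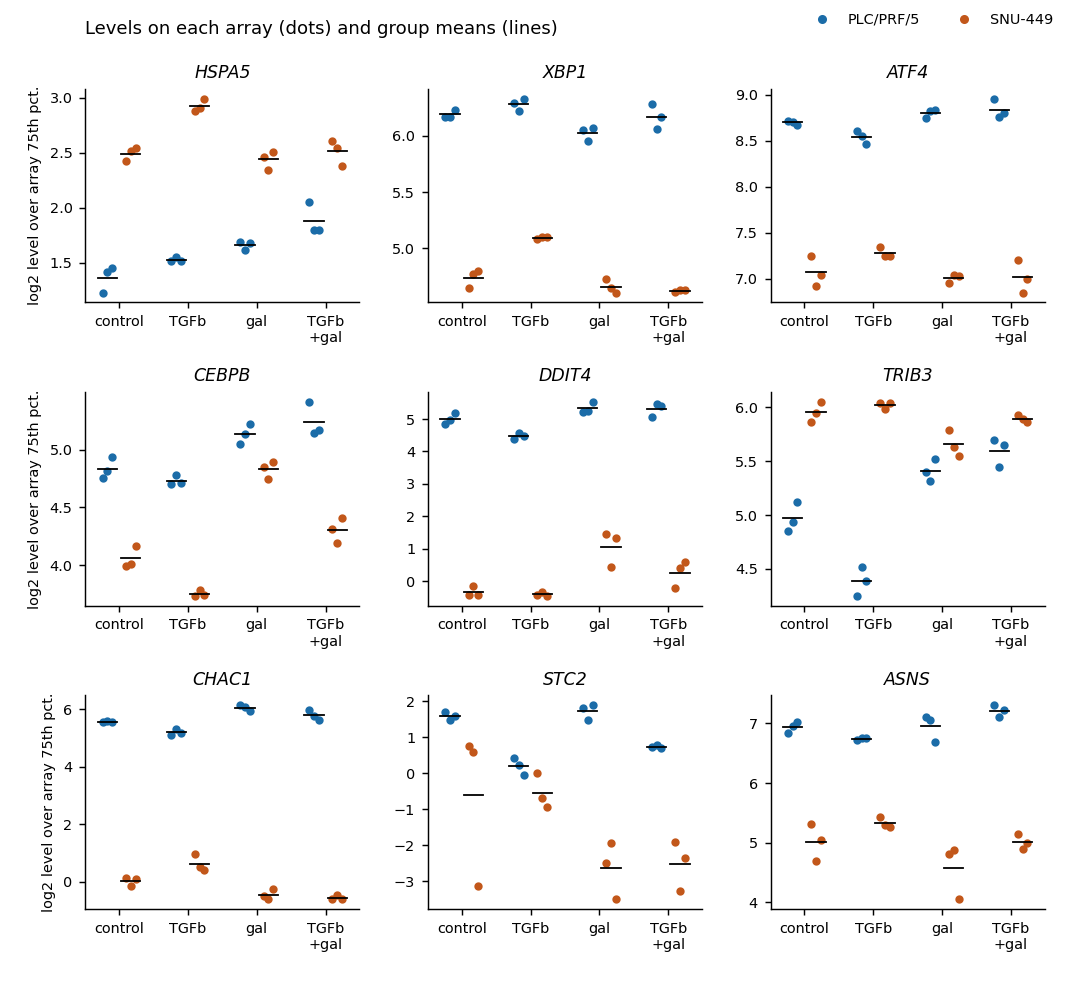
Log2 level over the 75th percentile of the array for 9 of the genes, in 4 conditions of each line (gal, galunisertib). Dots are arrays (3 per group) and lines are group means. In SNU-449, *HSPA5* and *XBP1* are highest with TGFβ and *CEBPB* with galunisertib, and in PLC/PRF/5 *TRIB3* is lowest with TGFβ, at 4.25 to 4.52. The third *STC2* control array of SNU-449 lies at -3.13.

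Of the 7 genes of amino acid synthesis and tRNA charging, 4 were called higher in PLC/PRF/5 with galunisertib added to TGFβ, a comparison in which 39.1% of all genes were called, 4304 of them higher and 2214 lower. *PSAT1*, an aminotransferase of serine synthesis, went from 5.93, 6.03 and 6.09 with TGFβ to 6.72, 6.49 and 6.53 with both, 1.48-fold higher (log2 difference 0.56, standard error 0.09, adjusted p = 7e-04). *ASNS*, whose promoter holds the ATF4 core shown above, went from 6.72, 6.76 and 6.75 to 7.31, 7.11 and 7.22 (log2 difference 0.47, standard error 0.11, adjusted p = 0.0069). Tryptophanyl-tRNA synthetase *WARS1* went from 3.51, 3.73 and 3.66 to 3.97, 4.21 and 4.11 (log2 difference 0.46, standard error 0.11, adjusted p = 0.00746). In each of these the groups were separate. *PSPH*, the phosphatase that completes serine synthesis, rose by 0.30 from 5.94, 6.02 and 6.07 to 6.47, 6.24 and 6.22 (adjusted p = 0.024, and from 0.0574 to 0.0877 without TGFβ replicate 1 or 2 or replicate 1 of both agents). Of these 4, *PSAT1* kept its call under all 11 alternative settings, while those of *ASNS*, *WARS1* and *PSPH* were lost with the 75th percentile over detected probes and after quantile normalization. *PSPH* also rose in SNU-449, from 4.32, 4.35 and 4.46 with TGFβ to 4.72, 4.83 and 4.83 with both (log2 difference 0.42, standard error 0.10, adjusted p = 0.02), a call lost without TGFβ replicate 1 or 2 or replicate 2 or 3 of both agents (adjusted p from 0.0612 to 0.0726).

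*PHGDH* and *AARS1* were called in other comparisons. *PHGDH*, the first enzyme of serine synthesis, was at 5.13, 5.06 and 5.08 in PLC/PRF/5 control cells, 4.66, 4.74 and 4.79 with TGFβ, 5.39, 5.13 and 5.12 with galunisertib, and 4.91, 4.80 and 4.97 with both. TGFβ lowered it by 0.37 without galunisertib (adjusted p = 0.021) and by 0.32 with it (adjusted p = 0.0484). *AARS1* was at 3.58, 3.23 and 3.31 with galunisertib and at 2.99, 2.96 and 2.99 with both, a fall of 0.39 (standard error 0.09, adjusted p = 0.0302). The fall of *PHGDH* with TGFβ alone was lost without replicate 1 or 2 of either group (adjusted p from 0.053 to 0.0864), and with galunisertib present it held only without galunisertib replicate 3 (0.0628 to 0.134 without any other array) and was lost with the replicate number as a block (adjusted p = 0.066). The fall of *AARS1* was lost without galunisertib replicate 1 or any replicate of both agents (0.0586 to 0.0749). *SHMT2*, a mitochondrial enzyme of serine and glycine exchange, was not called in any comparison, but it gave 0.74 with an adjusted p of 0.00122 for galunisertib added to TGFβ in PLC/PRF/5 without replicate 2 of both agents, against 0.39 with it.

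Whether the lines differ in their responses was tested as the difference of each effect, SNU-449 minus PLC/PRF/5. For TGFβ, *CHAC1* (0.95, standard error 0.18, adjusted p = 0.00173) and *TRIB3* (0.65, standard error 0.13, adjusted p = 0.00313) were called, beside 8.62% of the 17900 genes tested. For galunisertib, *CHAC1* (-0.98, standard error 0.18, adjusted p = 0.0026) and *TRIB3* (-0.74, standard error 0.13, adjusted p = 0.00191) were lower in SNU-449, and *CEBPB* (0.47, standard error 0.12, adjusted p = 0.0227) and *DDIT4* (1.05, standard error 0.31, adjusted p = 0.0494) were higher, beside 5.87%. These 2 effects share the control arrays. The differences of *CHAC1* and *TRIB3* held without each of the 12 arrays left out in turn, whereas *DDIT4* was called only without replicate 2 of SNU-449 control or of SNU-449 galunisertib (adjusted p from 0.0505 to 0.112 without any other), and *CEBPB* was lost without PLC/PRF/5 control replicate 3, PLC/PRF/5 galunisertib replicate 1, SNU-449 control replicate 1 or SNU-449 galunisertib replicate 3 (0.0512 to 0.0636). All of these calls were lost with arrays scaled to their median. For galunisertib, *STC2* differed by -2.17 and was not called (adjusted p = 0.221), but it gave -3.44 (adjusted p = 5.06e-04) without SNU-449 control replicate 3. *PDIA6* was called for galunisertib only without SNU-449 control replicate 2 (0.85, adjusted p = 0.0203, against 0.60 with it). The second *CHAC1* probe gave differences of 0.61 for TGFβ and -0.29 for galunisertib (standard error 0.25 for each), with the signs of the probe used. It was not well above background on 11 of the 12 SNU-449 arrays, so that these values do not measure the SNU-449 response. For *HSPA5* and *XBP1*, the TGFβ effect was larger in SNU-449 by 0.27 for both, with adjusted p of 0.19 and 0.0926, and the 95% intervals ran from 0.02 to 0.52 and from 0.07 to 0.46. Quantile normalization called 4 genes higher and 2 lower for TGFβ.

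**Figure D4:**
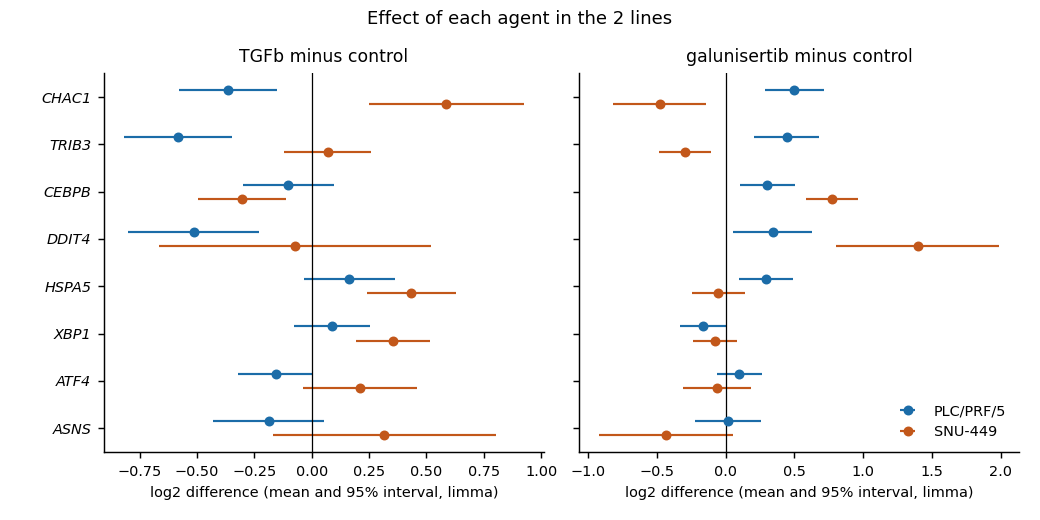
Effect of TGFβ (left) and of galunisertib (right) against control in each line for 8 of the genes, as log2 differences with 95% intervals from limma (3 arrays per group). For *CHAC1* the lines lie on opposite sides of 0 in both panels (0.59 and -0.37 with TGFβ, -0.48 and 0.50 with galunisertib).

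Beyond the 36 genes, 60 other genes of the same pathways were listed, such as further tRNA synthetases, amino acid transporters and translocon subunits, of which 57 were tested. In untreated cells 40 were lower and 5 higher in SNU-449 (78.9% called, beside 68.5% of all genes), with a median log2 difference of -0.87 beside -0.06 over all genes. In SNU-449, TGFβ raised 4 of them and lowered 0 (7.02% called, below the 10.5% of all genes), namely the stress-induced factor *ATF3* by 1.41, the stress-induced chromatin protein *NUPR1* by 0.74, the COPII coat subunit *SEC24D* by 0.44 and the degradation factor *SELENOS* by 0.38 on the log2 scale. Galunisertib added to TGFβ lowered 9 and raised 1, the death receptor *TNFRSF10B* (0.38), a share of 17.5% that is near the 17.1% of all genes. These 4 genes were among the 9, with *ATF3* at -1.57 and *NUPR1* at -1.0, in comparisons that share the TGFβ arrays. Galunisertib alone lowered *NUPR1* by 0.52 and the cysteinyl-tRNA synthetase *CARS1* by 2.20.

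In PLC/PRF/5, TGFβ raised 4 of the 57 and lowered 12 (28.1% called, beside 13.5% of all genes). Galunisertib added to TGFβ raised 30 and lowered 5 (61.4%, beside 39.1%), with a median of 0.34 beside 0.06 over all genes. The secreted stress cytokine *GDF15*, the glutamine transporter *SLC38A2* and the cysteine-forming enzyme *CTH* fell most with TGFβ, by 0.83, 0.63 and 0.53. With galunisertib added, *GDF15* (1.36), *SLC38A2* (1.18) and the cystine transporter *SLC7A11* (1.04) rose most, and *NUPR1* fell most (-1.07). *NUPR1* alone among the 57 was called higher with TGFβ in both lines, with 0.65 in PLC/PRF/5, and *ATF3* fell by 0.35 there. Galunisertib alone raised *GDF15*, the amino acid transporter *SLC7A5* and *TNFRSF10B* by 0.40, 0.40 and 0.38 and lowered *NUPR1* by 0.54. For the difference of the TGFβ effects between the lines, 15 of the 57 were higher in SNU-449 and 2 lower (29.8%, beside 8.62%), with *ATF3* at 1.76 and *SLC7A11* at 0.74, whereas for galunisertib the transporters *SLC3A2* (-0.95), *SLC7A1* (-0.77) and *SLC7A5* (-0.62) were the 3 called (5.26%, beside 5.87%). In both lines, the counts of these 57 genes were made with the main scaling only. Whether they hold under the other scalings, which changed many calls of the members, was not tested.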

How the data were processed

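RNA of 24 cultures (2 lines, 4 conditions, 3 independent experiments) was hybridised to one-colour Agilent arrays of 62976 spots. The authors deposited scanner files of Feature Extraction 10.7.3.1, whose processed signal is a background-corrected intensity, and a table of normalized log2 values of 30913 probes, each centred on its median (r = 0.999 with the intensities over 19258 probes). Flagged and control spots were left out (111 to 216 flagged spots per array, 0 saturated). Intensities were averaged over spots of a probe and divided by the 75th percentile of the unflagged non-control spots. They were held at a floor of 5.70% of that percentile (the typical weakest signal that an array marked as well above background) and taken to log2. Of 58201 probes, 31104 were named through RefSeq accessions (GRCh38.p14) and 10719 through LNCipedia, and 16378 had no name. Probes had to be well above background throughout at least 1 group, and a gene took the one with the highest mean.

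Differences were tested with limma 3.58.1 (R 4.3.3), on the 12 arrays of a line for treatments and on all 24 between lines, with Benjamini-Hochberg adjustment over all genes tested, and the fit was checked on simulated data. The methods' test with a random variance model was replaced by limma; the methods' t-test was an alternative. Since the files hold no mean signal, normexp (offset 50) used median signals. Other alternatives were 3 further scalings, the authors' table, the floor at 50%, 3 probe rules, the replicate number as a block, and each array left out. Deviations of same-numbered arrays correlated over 0.1 on every slide for TGFβ against control (0.13 to 0.22 in SNU-449, 0.17 to 0.30 in PLC/PRF/5) and in SNU-449 for both agents against TGFβ (0.10 to 0.27), not otherwise. The replicate number is the slide. P-values measure the spread between these cultures.

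All 36 genes may be named. Values on every array are given for those called in a treatment, interaction or line-difference test and for the 4 with the largest basal difference each way. Of other pathway genes, those called are named where at most 5, otherwise mainly the largest. Members and lists were chosen with earlier results of these data known.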

Additional observations from a re-analysis of the deposited data

Results flagged for a closer look

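For 4 genes, an effect differed between the lines, or between the absence and the presence of galunisertib, by a limma test of the difference itself. The effect of TGFβ in SNU-449 exceeded that in PLC/PRF/5 by 0.95 for *CHAC1* and 0.65 for *TRIB3* on the log2 scale. The effect of galunisertib was lower in SNU-449 for *CHAC1* (-0.98) and *TRIB3* (-0.74), and higher by 0.47 for *CEBPB* and 1.05 for *DDIT4*. In PLC/PRF/5, the effect of TGFβ on *TRIB3* was higher by 0.77 with galunisertib present. Each rests on 3 arrays per group.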

How the results depend on the processing

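Of the 81 calls of members in the 13 comparisons, no value changed sign under any alternative. Over 880 values from the alternatives that keep all arrays, 760 kept the call and 120 lost it, and over 528 values with 1 array left out, 439 kept it and 89 lost it. With 1 array left out, the number of members called was 29 to 30 between the untreated lines, 2 to 3 for TGFβ, 2 to 4 for galunisertib, 4 to 8 for galunisertib added to TGFβ, 0 to 2 for TGFβ added to galunisertib and 0 for the interaction, all in SNU-449. In PLC/PRF/5 it was 3 to 5, 0 to 2, 14 to 17, 1 to 4 and 1 to 2, in the same order. It was 2 to 5 for each difference between the lines.

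Scaling to the array median had the widest effect. It left 0, 1, 2 (0 higher, 2 lower) and 0 members called in SNU-449, for TGFβ, galunisertib, galunisertib added to TGFβ and TGFβ added to galunisertib, against 4, 2, 7 and 1. In PLC/PRF/5 it left 1, 0, 11 (11 higher, 0 lower) and 1 against 7, 2, 17 and 4, and 0 for the interaction and for both differences between the lines. It also moved the median of all genes, to 0.28 between the untreated lines and to between -0.15 and 0.23 in the treatment comparisons. The 75th percentile over detected probes gave 11 for galunisertib added to TGFβ in PLC/PRF/5 (8 higher, 3 lower) and 2 for the interaction there. Quantile normalization gave 1 for galunisertib and 2 for the interaction in PLC/PRF/5, and 6 for the TGFβ difference between the lines. The normexp background gave 4 for galunisertib and 2 for both agents against galunisertib in SNU-449, 4 for TGFβ in PLC/PRF/5 and 2 for the galunisertib difference between the lines, for which the authors' values also gave 2. The authors' values gave 1 for TGFβ added to galunisertib in PLC/PRF/5. Without a filter on dim probes there were 1 for the interaction in SNU-449 and 4, 1 and 2 in PLC/PRF/5 for TGFβ, galunisertib and TGFβ added to galunisertib. Probes well above background on every array gave 2 for the interaction in PLC/PRF/5. The methods' t-test gave 0 for galunisertib and for TGFβ added to galunisertib in both lines and 4 for TGFβ in PLC/PRF/5. The causes were not tested.

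With the replicate number as a block, 3 members were called for TGFβ and 7 for both agents against TGFβ in SNU-449, 7 for TGFβ and 1 for galunisertib in PLC/PRF/5, and 3 for the TGFβ difference between the lines. The block ended the calls of *CEBPB* for TGFβ in SNU-449 and, in PLC/PRF/5, of *TRIB3* for galunisertib and of *PHGDH* for both agents against galunisertib, and no other call of a member. Signal near background limits *ERN1*, *STC2* and the second *CHAC1* probe. The floor understates differences of *ERN1* and of the second *CHAC1* probe, whereas no *STC2* value was held at it.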
